A study of Homo sapiens with 8 samples.

Results

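The genes described here encode 10 proteins that read N6-methyladenosine (m6A), the most common internal modification of messenger RNA: YTHDF1, YTHDF2, YTHDF3, YTHDC1, YTHDC2, IGF2BP1, IGF2BP2, IGF2BP3, HNRNPC and HNRNPA2B1. They were taken by gene name from 4 lists of m6A peaks, in which 8758 genes had a peak in at least 1 list, and 9 of the 10 had one. The lists come from MeRIP-seq, in which RNA fragments bound by an antibody against m6A are sequenced and compared with RNA that was not enriched (input). The cells were 2 established human osteosarcoma lines, U2OS and 143B. Each line was infected with lentivirus carrying either a control hairpin RNA (shNC, called NC here) or a hairpin against METTL14 (shMETTL14), which with METTL3 forms the m6A writer enzyme. The labels do not say how many hairpins, clones or cultures were used. There are 8 libraries, 1 immunoprecipitated and 1 input library per group, and 1 peak list per group. No difference between lists therefore has a replicate check, and no test between groups was made.

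Readers bind methylated messages and influence how these are spliced, translated or degraded. The YTH domain proteins bind the methyl group in a pocket of the domain: YTHDF1, YTHDF2 and YTHDF3 act in the cytoplasm on translation and decay, YTHDC1 acts in the nucleus on splicing and export, and YTHDC2 is an RNA helicase. The IGF2BP proteins stabilise the RNAs they bind, and HNRNPC and HNRNPA2B1 are abundant nuclear proteins of pre-mRNA packaging and splicing. The peaks below lie on the readers' own messages, and say where those messages were enriched by the antibody, not which RNAs the readers bind or how much of each reader the cells made. In most cells m6A is densest around stop codons and in 3' UTRs.

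A locus is listed again for each isoform that contains it. Overlapping peaks within a list, on 1 strand, were also merged into sites to count each place once, and no peak of another gene fell in a reader site. An NC peak whose spliced blocks overlap no shMETTL14 peak of the same line on the same strand is called lost, and the reverse, for an shMETTL14 peak, is called gained. These words refer to listing alone. The fold enrichment and the p-value of a peak are the authors' own values, and percentiles place a peak within its own list, with 100 for the highest fold or the lowest p-value. Coordinates are on hg19. Read counts are not part of the lists, and depth is therefore unknown. METTL14 itself carried 5 peaks with NC and 2 with shMETTL14 in U2OS, and 1 and 4 in 143B, and since peaks are no measure of RNA level, they are no check of the knockdown. Of 8 osteoblast and mesenchymal markers, 3, 3, 3 and 4 had a peak in the U2OS NC, U2OS shMETTL14, 143B NC and 143B shMETTL14 lists, with RUNX2 and SPARC in each. Of 4 blood markers 0 had a peak in any list, and of 4 epithelial markers the keratin gene KRT8 had one in every list and KRT18 in both 143B lists.

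The readers fell into those with a peak in every list and those with nearly none. YTHDF1, YTHDF2, YTHDF3, IGF2BP2, HNRNPC and HNRNPA2B1 had a peak in all 4 lists, 6 of the 9 readers with any peak, beside 51% of the genes with any peak. YTHDC1, the nuclear YTH reader, had 0 peaks in each list. YTHDC2, IGF2BP1 and IGF2BP3 each appeared in a single list, made from cells with shMETTL14. The number of readers with a peak was 6 in U2OS NC, 7 in U2OS shMETTL14, 6 in 143B NC and 8 in 143B shMETTL14. These are out of the 9 with any peak, beside 6426, 6092, 6621 and 6916 of all 8758 genes with any peak. The readers' peaks numbered 54, 56, 51 and 57 in the same order, and joined to 15, 14, 13 and 16 sites.

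**Figure D1:**
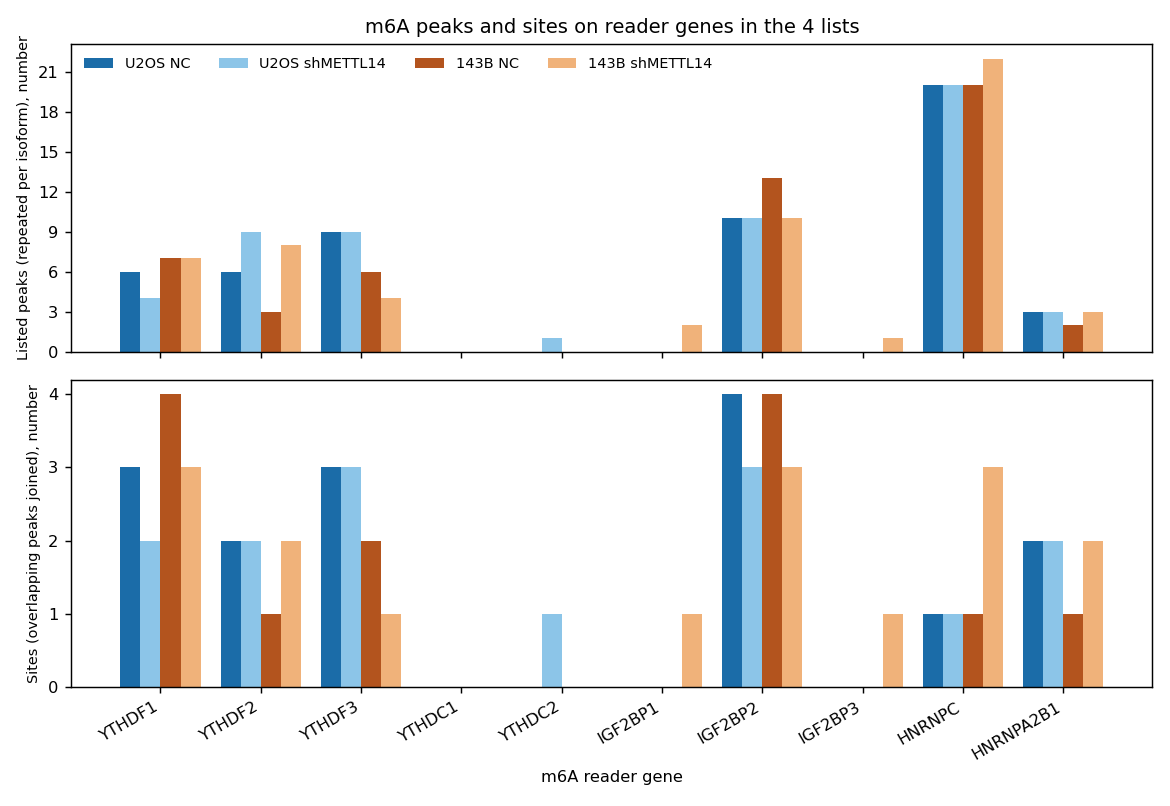
Number of listed peaks (upper) and of sites, meaning overlapping peaks joined (lower), for each reader gene in each of the 4 lists. HNRNPC has the most peaks, 20 to 22, and only 1 to 3 sites, while YTHDC1 has no bar.

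YTHDF2, which promotes decay of the methylated RNAs it binds, had a coding site that was listed with shMETTL14 in both lines and with NC in neither. In U2OS shMETTL14 the site lay at chr1:29069204-29069382 and was listed on 5 transcripts, with fold enrichments of 2.22 to 2.70 and p-values of 1.41e-06 to 0.000204. In 143B shMETTL14 it lay at chr1:29069280-29069403, again on 5 transcripts, with fold enrichments of 2.03 to 3.23 and p-values of 8.13e-08 to 2.0e-05. The sites share 103 nt of the coding sequence (chr1:29069280-29069382). Peaks gained at a place that was also gained in the other line made up 3.47% of all U2OS shMETTL14 peaks and 3.03% of all 143B shMETTL14 peaks. Among the readers they were 5 of 56 and 5 of 57 peaks, each of them an isoform copy of this 1 YTHDF2 site. The nearest NC peak was 259 to 347 nt away in U2OS and 268 to 295 nt away in 143B. Within their lists these were middling to weak peaks, with percentiles of at most 28.3 and 42.7 by fold and at most 51.8 and 54.8 by p-value.

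The main YTHDF2 site runs from the coding sequence across an intron and the stop codon into the 3' UTR and was kept in both lines. In U2OS NC it lay at chr1:29069881-29095721, with fold enrichments of 5.14 to 5.29 and a lowest p-value of 2.0e-44. In U2OS shMETTL14 it lay at chr1:29069612-29095691, with fold enrichments of 1.70 to 5.78 and a lowest p-value of 7.94e-53. It took in a separate coding site that the NC list gave at chr1:29069642-29069828. The 143B NC site lay at chr1:29069672-29095810 with fold enrichments of 7.83 to 8.11 and a lowest p-value of 2.0e-38. With shMETTL14 in 143B it lay at chr1:29069702-29095721, with fold enrichments of 7.53 to 7.58 and a lowest p-value of 1.0e-99. YTHDF2 thus ranked high in every list, between the 91.7 and 96.5 percentile of genes by lowest p-value. Bases covered on YTHDF2 went from 1086 to 1317 nt in U2OS and from 1197 to 1202 nt in 143B, of which 1056 and 1078 nt were shared between NC and shMETTL14.

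YTHDF1, a reader linked to translation, lost its site at the start codon in U2OS and kept it in 143B. This site crosses from the 5' UTR into the coding sequence and was the most enriched reader site by fold in 2 lists. In U2OS NC it lay at chr20:61845273-61847378 on 2 transcripts, with fold enrichments of 16.7 and 21.8, up to the 99.2 percentile of the list, and p-values of 2.75e-08 and 6.92e-08. U2OS shMETTL14 had no peak within 10709 nt of it on that strand. In 143B NC it lay at chr20:61845236-61847461, with fold enrichments of 9.13 and 10.4, and in 143B shMETTL14 at chr20:61846929-61847467, with 22.2 and 23.3. The site was thus in 3 of the 4 lists, and the difference between the lines was not tested.

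The upstream coding site of YTHDF1 changed little in place, while the downstream one reached further in 143B. The upstream coding site was listed at chr20:61834325-61834512 in U2OS NC, chr20:61834325-61834563 in U2OS shMETTL14, chr20:61834295-61834691 in 143B NC and chr20:61834275-61834691 in 143B shMETTL14. Its fold enrichments lay between 1.99 and 2.71 over the 4 lists. A downstream coding site was listed in U2OS at chr20:61833671-61833918 with NC and chr20:61833641-61833977 with shMETTL14. In 143B this site extended across the intron and, on some isoforms, past the stop codon, from chr20:61828030-61833977 with NC. With shMETTL14 in 143B it lay at chr20:61827920-61845236. It had joined a 3' UTR peak that 143B NC listed on its own at chr20:61827920-61828009. That peak had a p-value of 0.0020, at the 4.19 percentile of its list. Fold enrichments of the downstream site were 1.97 to 2.08 in U2OS NC and 2.34 to 2.36 in U2OS shMETTL14. In 143B they were 2.22 to 2.27 with NC and 1.58 to 1.77 with shMETTL14. Covered bases on YTHDF1 were 645 and 576 nt in U2OS against 1212 and 1219 nt in 143B, and all 645 nt of U2OS NC were also covered in 143B NC.

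YTHDF3, the third cytoplasmic YTH reader, lost and gained 0 peaks in either line but differed between the lines. A site in the 5' UTR, which on some isoforms ran across the start codon, was listed on 3 transcripts in both U2OS lists and in neither 143B list. It lay at chr8:64081421-64087944 in U2OS NC, with fold enrichments of 2.11 to 2.19 and p-values of 0.000132 to 0.000209. In U2OS shMETTL14 it lay at chr8:64081361-64087944, with fold enrichments of 2.41 to 2.42 and p-values of 9.12e-06 to 1.05e-05. The large coding site was listed in U2OS NC at chr8:64098856-64100054 (fold 5.02), in U2OS shMETTL14 at chr8:64099006-64099964 (fold 4.63) and in 143B NC at chr8:64099035-64099845 (fold 5.54). A further site at the end of the coding sequence and in the 3' UTR was listed at fold enrichments of 2.05 to 2.12 in U2OS NC, 2.87 to 3.59 in U2OS shMETTL14 and 2.56 to 3.79 in 143B NC. In 143B shMETTL14 both were 1 site (chr8:64098856-64122566), with fold enrichments of 4.04 to 4.65. Covered bases on YTHDF3 went from 1727 to 1672 nt in U2OS and from 1313 to 1908 nt in 143B.

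The other YTH readers were nearly absent. YTHDC1 had no listed peak, and none of its older names was in the lists. YTHDC2 had 1 peak, in the 3' UTR at chr5:112929544-112929664 in U2OS shMETTL14, with a fold enrichment of 3.74 and a p-value of 0.000513. By lowest p-value it lay at the 11.5 percentile of genes in that list. Of all listed genes, 2.88% had a peak in U2OS shMETTL14 alone.

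Among the IGF2BP genes, IGF2BP2 was listed throughout and lost the same 5' UTR place in both lines. In U2OS NC this was a single peak of 61 nt at chr3:185542784-185542844, with a fold enrichment of 9.63 and a p-value of 0.00012. In 143B NC it was listed on 3 transcripts at chr3:185542740-185542844, with fold enrichments of 3.19 to 4.56 and p-values of 0.000269 to 0.00123. The copy with the fold enrichment of 4.56 was annotated to both 5' UTR and coding sequence. All 61 nt of the U2OS peak lay inside the 143B site. With shMETTL14 neither line had a peak on that strand within 92658 nt. Peaks lost at a place that was also lost in the other line made up 3.33% of all U2OS NC peaks and 3.13% of all 143B NC peaks, and among the readers 1 of 54 and 3 of 51, which are this site. The peaks were weak by p-value, at most at the 30.3 percentile in U2OS and the 25.5 percentile in 143B.

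The other 3 IGF2BP2 sites lie around and beyond the stop codon and were kept in both lines. The middle 3' UTR site was the strongest by p-value in every list, at chr3:185362097-185362609 (fold 4.91 to 5.61) in U2OS NC and chr3:185362031-185362519 (fold 3.28 to 3.37) in U2OS shMETTL14. In 143B it lay at chr3:185362031-185362699 (fold 3.57 to 3.63) with NC and chr3:185362010-185362849 (fold 3.69 to 3.75) with shMETTL14. The most distal 3' UTR site had its 3' end at position 185361527 of chromosome 3 in all 4 lists, with highest fold enrichments of 6.16, 10.2, 15.2 and 8.73 in U2OS NC, U2OS shMETTL14, 143B NC and 143B shMETTL14. These values were all on 1 transcript. The other transcript listed at this site had lower fold enrichments, 2.12 in U2OS shMETTL14, 5.27 in 143B NC and 3.37 in 143B shMETTL14. The site at the stop codon had fold enrichments of 1.75 to 2.11 over the 4 lists. It was annotated to both coding sequence and 3' UTR in U2OS NC, U2OS shMETTL14 and 143B NC. In 143B shMETTL14 it lay wholly in the 3' UTR, at chr3:185362984-185363288, where 143B NC had chr3:185362840-185363358.

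IGF2BP1 and IGF2BP3 were listed in 143B shMETTL14 alone, as were 6.05% of all listed genes. IGF2BP1 had 1 coding site of 121 nt at chr17:47118847-47119708 on 2 transcripts, with fold enrichments of 1.42 and 1.53 and p-values of 0.00117 and 0.000224. IGF2BP3 had 1 peak of 151 nt in the 3' UTR at chr7:23350636-23350786, with a fold enrichment of 1.94 and a p-value of 1.29e-05. By highest fold these genes lay at percentiles 1.07 and 4.03 of the genes in that list.

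HNRNPC and HNRNPA2B1 had the lowest p-values of the readers at modest fold enrichments, and neither lost a peak. The HNRNPC site covers several coding blocks and part of the 3' UTR and was listed on 20 transcripts in every list. It lay at chr14:21679125-21681249 in U2OS NC, chr14:21679122-21681249 in U2OS shMETTL14, chr14:21679092-21680080 in 143B NC and chr14:21679082-21681249 in 143B shMETTL14. Its highest fold enrichments were 3.60, 3.67, 2.98 and 3.37 in that order, and its lowest p-values 1.0e-111, 1.0e-109, 1.0e-126 and 1.0e-238. All 746 nt covered in 143B NC and all 760 nt covered in U2OS NC were also covered with shMETTL14. In 143B shMETTL14 alone, 2 short 5' UTR peaks were added on 1 transcript, at chr14:21731857-21731917 (fold 1.63, p-value 0.00038) and chr14:21730933-21731023 (fold 2.42, p-value 0.000105).

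The main HNRNPA2B1 site spans 8 exon blocks from the coding sequence into the 3' UTR. Its fold enrichments were 2.92 in U2OS NC, 2.92 and 2.93 in U2OS shMETTL14, 2.81 in 143B NC, and 3.29 and 3.32 in 143B shMETTL14. Its lowest p-values were 1.0e-249 and 1.0e-275 in U2OS and were listed at 0 in both 143B lists. HNRNPA2B1 thus lay between the 99.5 and 99.8 percentile of genes by lowest p-value, and between the 12.6 and 25.2 percentile by highest fold. A small distal 3' UTR site was listed in both U2OS lists, at chr7:26230768-26230828 with NC and chr7:26230768-26230857 with shMETTL14, and at another place, chr7:26230887-26230947, in 143B shMETTL14. HNRNPC and HNRNPA2B1 have near-identical processed copies elsewhere in the genome, and how such reads were placed is not given, so their values are uncertain.

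**Figure D2:**
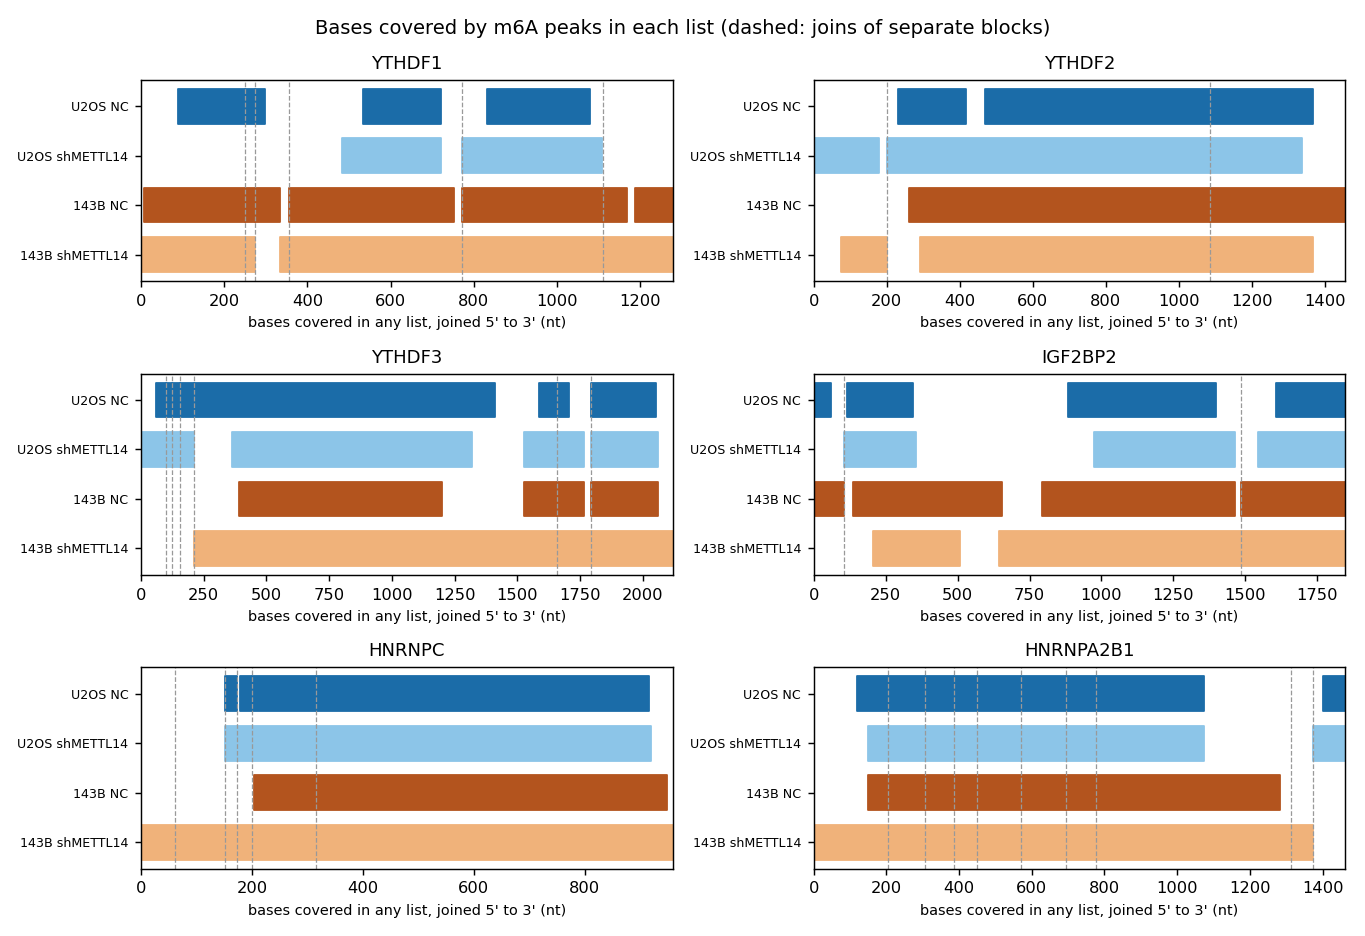
Bases covered by peaks in each list (rows, NC and shMETTL14 of each line) along the bases covered in any list, joined from 5' to 3' in nt, for the 6 readers listed throughout. Dashed lines mark joins between separate blocks. At the 5' end, the bars show the YTHDF2 coding site in the shMETTL14 rows alone, the IGF2BP2 5' UTR site in the NC rows alone and the YTHDF1 start site in 3 of 4 rows.

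Lost and gained shares were counted over all reader peaks. In U2OS, 3 of 54 NC peaks were lost (5.56%, exact Clopper-Pearson 95% interval 1.16 to 15.4), beside 26.9% of all NC peaks. They were 2 on YTHDF1 and 1 on IGF2BP2. In 143B, 3 of 51 were lost (5.88%, interval 1.23 to 16.2), beside 20.7% of all, and all 3 were on IGF2BP2. Of the shMETTL14 peaks, 6 of 56 were gained in U2OS (10.7%, interval 4.03 to 21.9), beside 20.9% of all, and 11 of 57 in 143B (19.3%, interval 10.0 to 31.9), beside 27.3% of all. The U2OS gains were 5 on YTHDF2 and 1 on YTHDC2. The 143B gains were 5 on YTHDF2, 2 each on HNRNPC and IGF2BP1, and 1 each on IGF2BP3 and HNRNPA2B1. The intervals cover counting error only and treat isoform copies as independent, which they are not. With each list limited to its upper 50% by fold enrichment, the readers lost 7 of 14 peaks in U2OS (50%, interval 23.0 to 77.0), beside 37.9% of all, and 2 of 11 in 143B (18.2%, interval 2.28 to 51.8), beside 34.2%. They gained 3 of 12 in U2OS (25%, interval 5.49 to 57.2), beside 33.3%, and 6 of 14 in 143B (42.9%, interval 17.7 to 71.1), beside 38.2%, and each of these intervals includes the share of all peaks. The p-value limit and the single transcript also moved some of these shares by over 1.5 times. With the 50% of lower p-values, gained peaks fell to 1 of 45 in U2OS (2.22%, interval 0.0562 to 11.8), beside 14.2% of all. In 143B they fell to 1 of 42 (2.38%, interval 0.0603 to 12.6), beside 21.4%. Each was on YTHDF2, and the 45 and the 42 each include the 20 copies of the main HNRNPC site. With 1 transcript per gene, 16.7% were lost (beside 25.5%) and 43.8% gained (beside 32.6%) in 143B.

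Each place was also counted once. Lost sites were 2 of 15 in U2OS (13.3%, interval 1.66 to 40.5), beside 31.2% of all sites, and 1 of 13 in 143B (7.69%, interval 0.195 to 36.0), beside 24.6%. Gained sites were 2 of 14 in U2OS (14.3%, interval 1.78 to 42.8), beside 24.9%, and 6 of 16 in 143B (37.5%, interval 15.2 to 64.6), beside 32%. Each of these 4 site intervals includes the share of all sites. Of the peak shares, both lost shares have intervals below the background, and HNRNPC supplies 20 of the kept peaks in each. Without HNRNPC, 3 of 34 peaks were lost in U2OS (8.82%, interval 1.86 to 23.7) and 3 of 31 in 143B (9.68%, interval 2.04 to 25.8), the latter interval including the background.

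**Figure D3:**
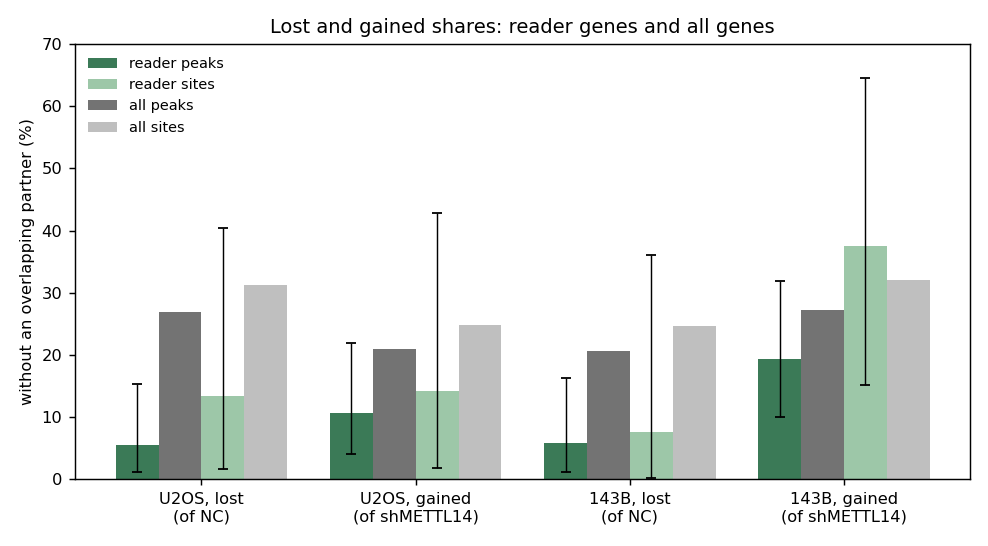
Percent of peaks or sites with no overlapping partner in the other list of the same line, for the readers (green) and for all genes (grey). Error bars are exact 95% intervals. Reader bars for peaks are below those for all peaks in the 4 comparisons, and the bar for gained 143B reader sites, 37.5%, is above that for all sites.

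Strength moved with these shares. Over all genes, 59.9% of U2OS NC peaks were lost among the 25% with the highest p-values, against 0.408% among the 25% with the lowest. In 143B NC the shares were 48.9% and 0.473%. Gained shares ran from 51% to 0.187% in U2OS shMETTL14 and from 60.2% to 0.42% in 143B shMETTL14. Of the reader peaks, 31 of 54, 34 of 56, 37 of 51 and 37 of 57 lay among the 25% with the lowest p-values of their lists (U2OS NC, U2OS shMETTL14, 143B NC and 143B shMETTL14), and 0 of these were lost or gained. The 20 isoform copies of the 1 main HNRNPC site are among the 25% with the lowest p-values in each list. Without HNRNPC the median p-value percentile of reader peaks was 56.3, 62.3, 80.4 and 73.9 in the same order of lists. With HNRNPC these medians were 91.7, 88.1, 94.3 and 92.7. How far strength accounts for the readers' low shares was not tested.

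**Figure D4:**
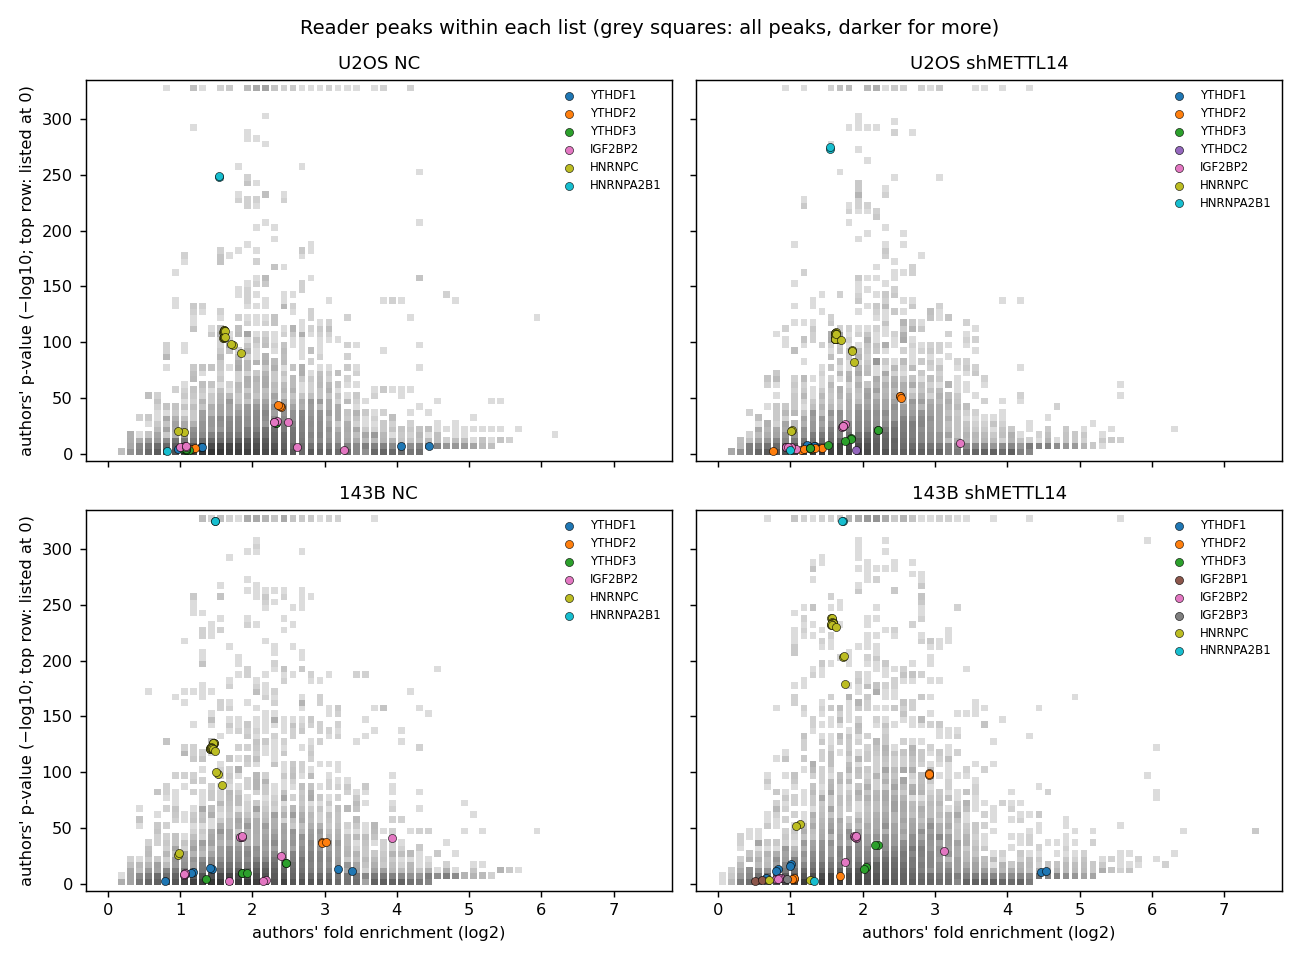
The authors' fold enrichment (log2, horizontal) against their p-value (−log10, vertical; p-values listed at 0 are drawn at the top) for reader peaks, coloured by gene, over all peaks of each list in grey. HNRNPC and HNRNPA2B1 stand high at modest fold, and the YTHDF1 start site lies far right and low.

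Covered length was compared for the 6 readers with peaks in both lists of a line. With shMETTL14 it was 0.893 to 1.21 times the NC length in U2OS, with a median of 0.999 beside 0.953 over 5337 genes. In 143B it was 0.911 to 1.45 times, with a median of 1.11 beside 1.12 over 5841 genes. The ends of these ranges were YTHDF1 and YTHDF2 in U2OS, and IGF2BP2 and YTHDF3 in 143B. A change past 1.5-fold was seen for 0 readers, beside 11.9% of genes up and 19.5% down in U2OS, and 24.9% up and 11% down in 143B.

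Overlap between the lines was counted for NC and for shMETTL14. Of the U2OS NC reader peaks 50 of 54 overlapped a 143B NC peak (92.6%, interval 82.1 to 97.9), beside 69.8% of all, and of the 143B NC reader peaks 50 of 51 overlapped a U2OS NC peak (98.0%, interval 89.6 to 99.95), beside 68.6%. Without HNRNPC these were 30 of 34 (88.2%, interval 72.5 to 96.7) and 30 of 31 (96.8%, interval 83.3 to 99.9). In sites, with HNRNPC, the overlaps were 13 of 15 (interval 59.5 to 98.3, which includes the 65.7% of all sites) and 12 of 13 (interval 64.0 to 99.8), beside 63.1%. The exceptions were the YTHDF3 start site and the distal HNRNPA2B1 3' UTR site in U2OS, and the short YTHDF1 3' UTR peak in 143B. With shMETTL14, 51 of 56 U2OS reader peaks overlapped a 143B peak, beside 78% of all, and 48 of 57 143B reader peaks overlapped a U2OS peak, beside 65.4%. In sites these were 11 of 14 (78.6%, interval 49.2 to 95.3), beside 75%, and 10 of 16 (62.5%, interval 35.4 to 84.8), beside 59.9%, so that with shMETTL14 the site shares were near those of all sites.

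Reader peaks more often reached the 3' UTR than peaks at large when isoform copies were counted. The shares touching the 3' UTR were 64.8% (35 of 54, interval 50.6 to 77.3) in U2OS NC, 67.9% (38 of 56, interval 54.0 to 79.7) in U2OS shMETTL14, 74.5% (38 of 51, interval 60.4 to 85.7) in 143B NC and 71.9% (41 of 57, interval 58.5 to 83.0) in 143B shMETTL14. Over all peaks they were 38.7%, 38.4%, 41.6% and 42.0%. HNRNPC again weighs on this. Peaks across the stop codon were 28 of 54 in U2OS NC and 11 of 34 without HNRNPC (32.4%), beside 15.7% of all peaks. In 143B shMETTL14 they were 27 of 57 and 10 of 35 without it (28.6%), beside 16.6% of all. Without HNRNPC the shares touching the 3' UTR were 52.9%, 58.3%, 67.7% and 68.6% in the order above, still higher than over all peaks. The U2OS NC interval, 35.1 to 70.2, then included the share of all peaks. In sites the readers stood at 8 of 15, 9 of 14, 9 of 13 and 10 of 16, with intervals that include the 48.8%, 48.5%, 51.0% and 52.8% of all sites. Spliced peaks of more than 1 block made up 55.4% to 62.7% of reader peaks and 34.5% to 39.2% of all peaks. Without HNRNPC the readers' spliced share was 30.6% to 40.0%, close to that of all peaks.

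Other genes of the pathway were counted in the same way. Of 11 other proteins reported to read m6A, 8 had a peak in some list. They lost 12 of 40 peaks in U2OS (30%, interval 16.6 to 46.5, beside 26.9% of all) and 0 of 35 in 143B (interval 0 to 10.0, beside 20.7%). They gained 2 of 30 in U2OS (6.67%, interval 0.818 to 22.1, beside 20.9%) and 7 of 40 in 143B (17.5%, interval 7.34 to 32.8, beside 27.3%). ELAVL1, an RNA-stabilising protein, lost all 4 of its peaks in U2OS and kept all 4 in 143B. In each NC list these joined to 1 site. FXR1, of the fragile X protein family, lost 8 of 21 in U2OS and 0 of 15 in 143B, and gained 0 of 13 and 1 of 17. G3BP1, a stress granule protein, gained 5 of 7 in 143B and 0 of 5 in U2OS, and FXR2 gained 1 of 2 in 143B.

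Of 18 partners and effectors of readers, 11 had a peak in some list. They lost 14 of 125 peaks in U2OS (11.2%, interval 6.26 to 18.1) and 6 of 132 in 143B (4.55%, interval 1.69 to 9.63). Gained were 4 of 119 (3.36%, interval 0.923 to 8.38) and 2 of 127 (1.57%, interval 0.191 to 5.57), all below the shares of all peaks given above. These shares and intervals treat isoform copies as independent, and the shares in sites were not computed. CNOT6L, a deadenylase of the CCR4-NOT complex that shortens poly(A) tails, lost all of its peaks in both lines, 4 in U2OS and 5 in 143B. In each line these joined to 1 site. SRSF10, a splicing factor, lost all 4 NC peaks, which joined to 1 site, and gained its 1 shMETTL14 peak in U2OS. In 143B it lost 0 of 6 and gained 1 of 6. POP1, a subunit of RNase P and RNase MRP, lost 3 of 4 and gained 3 of 5 in U2OS, with 0 changed in 143B, and CNOT3, a CCR4-NOT subunit, lost its 1 peak in U2OS and gained 1 in 143B. Outside the naming rule, EIF4G1 and PABPC1, chosen after their values were seen, gave 66 and 17 of the U2OS NC peaks of this list and lost 0 in either line. Those U2OS NC peaks joined to only 5 and 3 sites, so copies of few places weigh on the low shares of this list. Whether the shares stay low without these genes was not tested.

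Writers and erasers, 12 genes of which 11 had a peak in some list, lost 8 of 45 peaks in U2OS (17.8%, beside 26.9% of all) and 6 of 46 in 143B (13.0%, beside 20.7%). They gained 3 of 42 in U2OS (7.14%, beside 20.9%) and 16 of 50 in 143B (32%, beside 27.3%, interval 19.5 to 46.7). METTL14 lost 3 of 5 and gained 1 of 2 in U2OS, and lost 1 of 1 and gained 4 of 4 in 143B. KIAA1429, a scaffold of the writer complex, lost 3 of 6 and gained 0 of 3 in U2OS, and in 143B lost 1 of 9 and gained 3 of 8. METTL16, a separate methyltransferase, lost 0 of 2 and gained 1 of 3 in U2OS, and lost 1 of 4 and gained 1 of 4 in 143B. The demethylase FTO gained 1 of 6 in U2OS and 3 of 3 in 143B, with 0 lost.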

How the data were processed

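MeRIP-seq peak lists of 4 immunoprecipitated libraries were used, and groups were taken from the sample titles. Input libraries enter only through the lists. The submitters' processing notes name build hg19, FastQC 0.11.5, Trimmomatic and HISAT2. Neither peak caller, threshold, annotation nor read depth is given in the sources used here. Per the file headers, each peak has a p-value and a fold enrichment, which is a linear ratio, both deposited by the authors. Whether the p-value is adjusted is not stated.

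Rows were selected by gene name. Overlap required at least 1 bp of spliced blocks on the same strand. Starts were read as counted from 0 and are printed from 1. Exact intervals are at the 95% level. The 10 readers are always named, and each of 3 related gene lists adds at most the 4 genes with the most changed peaks, with exceptions marked where they are named. Members and lists were chosen with earlier results of these data known. Alternatives changed the overlap, the peaks used and the unit. Leaving out HNRNPC, counting bases and dividing lists by p-value were chosen after seeing the data. The overlap code was tested on simulated lists, with lost peaks moved off every peak and kept peaks shifted by a few bp. This checks the code alone, and spliced peaks were left out of it. The software was scipy 1.17.1, pandas 2.3.3 and numpy 2.4.6 under Python 3.11.15, with matplotlib 3.10.9 for figures. Peak sequences are not shown, since no hg19 genome was used here.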

Additional observations from a re-analysis of the deposited data

How the results depend on the processing

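No paired analysis was possible because each group has 1 peak list, and the results come from no test. The labels also carry no replicate numbers. NC and shMETTL14 lists were compared within each line. Of 94 alternative values for 14 results, 74 stayed within the interval of the reported share or within 1.5 times the reported count, and 20 did not. Using the upper 50% of each list by fold enrichment left 11 to 14 reader peaks. Lost shares became 50% in U2OS and 18.2% in 143B, and gained shares 25% and 42.9%, beside 37.9%, 34.2%, 33.3% and 38.2% of all peaks so limited. Overlap of U2OS NC with 143B NC became 64.3% and the reverse 100%, the share touching the 3' UTR 45.5% in 143B NC and 85.7% in 143B shMETTL14, and 4 readers had a peak in 143B shMETTL14. With the 50% of lower p-values, gained shares were 2.22% in U2OS and 2.38% in 143B (all peaks 14.2% and 21.4%), and both overlaps of the NC lists were 100%. With 1 transcript per gene, 143B shares were 16.7% lost and 43.8% gained (all 25.5% and 32.6%), and U2OS NC overlap 80%. In sites, 37.5% were gained in 143B (all 32%). Requiring 50% of each peak gave NC overlaps of 75.9% and 82.4%. In bases, 76.5% of 143B NC was covered in U2OS NC. These overlaps, the 3' UTR shares and the reader count have no share of all peaks or genes under the same rule beside them. Whether they stand apart from all peaks was therefore not tested. An upper 50% or 1 transcript has fewer peaks, and fewer possible partners, by construction. For the overlap and base alternatives the cause was not tested. Depth behind the peaks is unknown, so a place without a peak may have lacked reads.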
